A study of Ovis aries with 16 samples.

Results

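The transcripts described here are 4 genes whose products belong to the weapons of neutrophils, the blood-borne phagocytes that enter tissue early in inflammation: CATHL3, LTF, MMP9 and CYBB. They were taken by gene name, with earlier results of these data known. They were measured by 5 of the 15008 probes of a 1-colour sheep oligonucleotide array, against 1025 genes that could be named on it. RNA came from the frontal cortex of 16 late-gestation fetal sheep, 1 array per fetus, taken 24 h after the ewe began to breathe either a low-oxygen or a normal gas mixture for 30 min. Fetuses in each arm did or did not receive ketamine (3 mg/kg, intravenous) beforehand, and 23.5 h of normoxia followed. The groups were normoxia control (n = 3), normoxia + ketamine (n = 4), hypoxia control (n = 5) and hypoxia + ketamine (n = 4), and all fetuses carried chronic catheters. Genes of brain cells were present. NPY and SST, the 2 genes measured of 19 listed for neurons, and GFAP of astrocytes were each well above background on all 16 arrays. How evenly the tissue was dissected was not tested.

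Neutrophils store antimicrobial proteins in granules that are filled while the cell matures in the bone marrow. Cathelicidins such as CATHL3 lie in granules as precursors, from which a proline-rich antimicrobial peptide is cut. LTF encodes lactoferrin, the iron-binding protein of the specific granules, and MMP9 encodes gelatinase B, a collagen-degrading protease of the gelatinase granules. CYBB encodes gp91-phox, the catalytic subunit of the phagocyte NADPH oxidase, which makes superoxide in neutrophils and also in monocytes, macrophages and microglia. Granule protein transcripts are known to be most abundant in immature neutrophils and to fall as the cell matures.

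CATHL3 and LTF differed more between fetuses of the same hypoxia group than between the groups with and without ketamine. CATHL3 spanned a wide range within both hypoxia groups, LTF was high in the same fetuses, and so were the other cathelicidins on the array. CATHL3 was higher in hypoxia + ketamine than in normoxia + ketamine, and the group means of both hypoxia groups lay close together with a wide error. CYBB by its named probes and MMP9 were at or below the array's background in nearly all fetuses, so that little can be said of their levels.

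The title and sample code of hypoxia control replicate 1 place it in the hypoxia control group, while its source name and characteristics describe normoxia with ketamine. It was used here as the title says. Calls of member and granule genes that it changes are given with and without it, and those of other lists in part. Its other label gives the same difference as leaving it out in comparisons with hypoxia control. No array stood apart as a whole: the correlation between any pair of arrays lay between 0.984 and 0.996, and 69.2 to 76.9% of spots were well above background.

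The sequences of the probes are shown because they decide what each value can be taken for. The pair of CYBB probes is in effect the same 60-base oligonucleotide moved by 1 base, with 59 bases shared, and the capital marks the base that the other lacks. They are therefore 2 readings of the same target stretch and not independent measures of the gene.
CYBB, A_70_P021812: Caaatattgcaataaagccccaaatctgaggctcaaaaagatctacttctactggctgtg
CYBB, A_70_P021811: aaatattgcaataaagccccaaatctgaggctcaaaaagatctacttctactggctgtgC
Another probe carried no gene symbol, but its description in the array files named the cytochrome b-245 beta polypeptide, the product of CYBB. It is no member by name and is reported beside them. Its sequence is different from the pair above, and the LTF probe follows it.
described as CYBB, A_70_P068061: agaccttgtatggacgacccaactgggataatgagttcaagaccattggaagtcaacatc
LTF, A_70_P030196: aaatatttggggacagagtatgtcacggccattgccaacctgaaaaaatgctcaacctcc
These 4 oligonucleotides each have at least 1 reading frame with no stop codon.

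The CATHL3 probe has a stop codon in every frame and holds the letters AATAAA, the core of the polyadenylation signal. Sheep cathelicidins share a conserved precursor, so probes of different family members could pick up each other's transcripts. The 27 bases around AATAAA, which is in capitals, are set side by side for CATHL3 and the other 3 cathelicidin genes measured.
CATHL3, A_70_P039281: tggacggtgaaaAATAAAttctggtga
CATHL1B, A_70_P051376: ctggatctgaaaAATAAActcttgtga
BAC5, A_70_P039656: cagcatccaaaaAATAAAatcttgtgg
SC5, A_70_P030426: tggactctgagaAATAAAttcttgtga
AATAAA was searched on the printed strand only and was present in 5.63% of all probes on the array. The longest run that the CATHL3 probe shared was 12 bases with the SC5 probe, 11 with CATHL1B and 9 with BAC5, and the longest shared with any probe of the array was 14, with an unnamed probe. How far each probe also reads its relatives was not tested.

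CATHL3 (probe A_70_P039281, listed in the array files under the older name BAC7.5) was well above background on all 16 arrays. Levels are normalised log2 intensities, so that a difference of 1 is a doubling, and they are compared only within a probe. The 3 fetuses of normoxia control were at 7.61, 9.14 and 8.56 (mean 8.44 ± 0.77, SD). The 4 fetuses of normoxia + ketamine were at 7.18, 7.18, 6.55 and 8.21 (mean 7.28 ± 0.68). Normoxic fetuses with and without ketamine overlapped, and none of the 7 reached 10. Bulk RNA cannot tell more cells of a type from more RNA per cell.
The 5 hypoxia control fetuses were at 8.35, 11.71, 12.63, 8.53 and 10.44 (mean 10.33 ± 1.9), and the 4 hypoxia + ketamine fetuses at 8.70, 11.95, 8.34 and 12.82 (mean 10.45 ± 2.3). Before normalisation the 16 fetuses had mean spot signals from 78.78 in normoxia + ketamine replicate 3 to 7021 in hypoxia + ketamine replicate 4. Hypoxia control replicates 2, 3 and 5 and hypoxia + ketamine replicates 2 and 4 were above every normoxic fetus, while hypoxia control replicates 1 and 4 and hypoxia + ketamine replicates 1 and 3 lay inside the range of normoxia control. The highest hypoxia control fetus was 19.5-fold above the lowest of its own group, and the highest hypoxia + ketamine fetus 22.3-fold, against 2.89-fold in normoxia control and 3.15-fold in normoxia + ketamine.

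**Figure D1:**
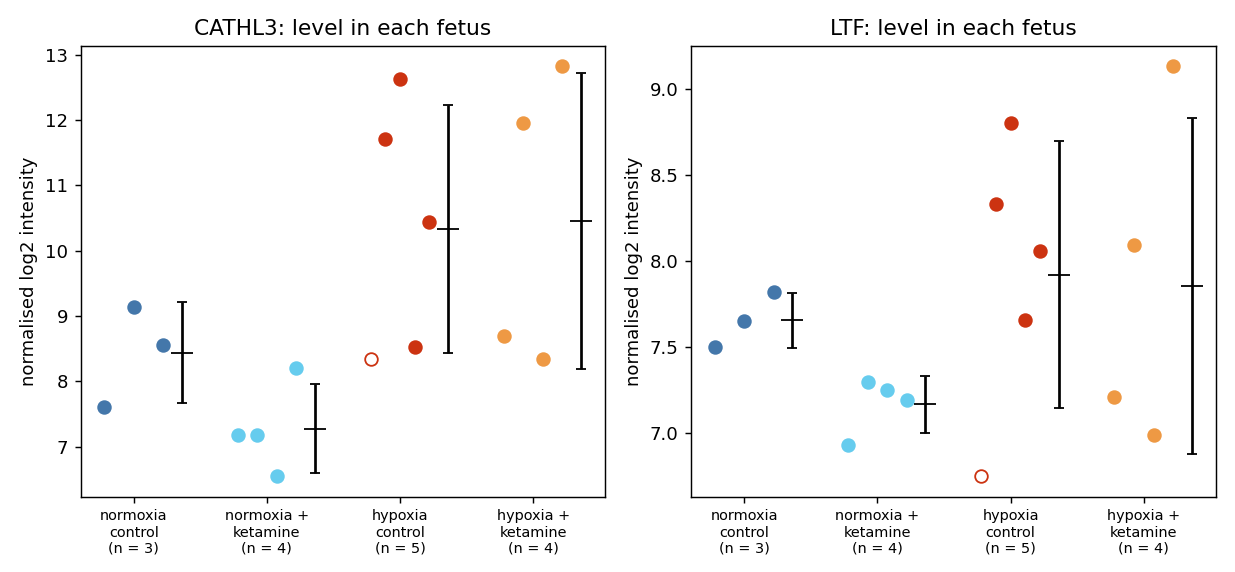
Normalised log2 intensity of CATHL3 (left) and LTF (right) in each fetus, by group. Each point is a fetus, ordered by replicate number, the bar is the mean ± SD, and the open point is hypoxia control replicate 1, whose labels disagree. CATHL3 lies between 8.34 and 12.82 in the fetuses of the hypoxia groups, and between 6.55 and 9.14 in the normoxic fetuses.

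The spread within groups was among the largest on the array. The residual SD of CATHL3 about its group means was 1.64, against a median of 0.15 over all probes, and only 17 of 15008 probes had a larger value. The order of the group means was normoxia + ketamine, normoxia control, hypoxia control, hypoxia + ketamine, and no neighbours in this order differed beyond their spread.

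In hypoxia control against normoxia control CATHL3 did not pass the test. The log2 difference was 1.89 (SE 1.1, 95% CI -0.43 to 4.22, unadjusted P = 0.10, adjusted P = 0.711 by limma), and a two-sided exact permutation test between fetuses gave p = 0.21. By size it was the 33rd largest increase of 15008 probes, yet the groups overlapped. None of the 5 member probes was called (limma, unadjusted P under 0.05), where 7.98% of all probes were, 3.33% higher and 4.65% lower, and none of the 15008 passed Benjamini-Hochberg adjustment. Without hypoxia control replicate 1 the CATHL3 difference was 2.39 and passed the unadjusted threshold (P = 0.045 by limma), as it did with that fetus placed in normoxia + ketamine (P = 0.041), while the exact permutation p was 0.17 in either case. Within the first slide the difference was 1.65 and within the second 1.98.

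A difference in CATHL3 between hypoxia with and without ketamine was not detectable with these fetuses. In hypoxia + ketamine against hypoxia control the log2 difference was 0.12 (SE 1.0, 95% CI -2.01 to 2.25, unadjusted P = 0.91 by limma, exact permutation p = 0.87). The interval is wide: it runs from a 0.248-fold to a 4.77-fold level, and differences of that size in either direction lie within the error. The sign turned to -0.38 without hypoxia control replicate 1 and also without hypoxia + ketamine replicate 2, to -0.33 without hypoxia control replicate 4 and to -0.67 without hypoxia + ketamine replicate 4. Again none of the 5 member probes was called, where 8.95% of all probes were, 5.35% higher and 3.6% lower.

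The lowest group mean of CATHL3 was that of normoxia + ketamine. CATHL3 differed by -1.16 in normoxia + ketamine against normoxia control (SE 1.1, 95% CI -3.59 to 1.27, unadjusted P = 0.32 by limma, exact permutation p = 0.11, where 0.057 is the smallest that 4 against 3 fetuses allow). It was the 9th largest decrease of 15008 probes, but it did not pass, and none of the 5 member probes did, where 2.35% of all probes were called, 0.88% higher and 1.47% lower. With the spread taken from these groups alone, which is narrower than that of the hypoxia groups, the same difference had an unadjusted P of 0.032 by limma.

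In fetuses given ketamine, CATHL3 was higher after hypoxia than after normoxia. The log2 difference between hypoxia + ketamine and normoxia + ketamine was 3.17 (SE 1.1, 95% CI 0.92 to 5.42), a 9.02-fold level, and it was the largest increase of all 15008 probes. All 4 hypoxia + ketamine fetuses lay above all 4 normoxia + ketamine fetuses, as did 1.79% of all probes in this direction. The unadjusted P was 0.0089 and the adjusted P 0.561 by limma, and the exact permutation p was 0.029, the smallest that 4 against 4 fetuses allow. CATHL3 was the only called member probe of the 5, where 6.88% of all probes were called, 3.09% higher and 3.79% lower. The difference was 3.15 within the first slide and 3.20 within the second, and it ran from 2.38 to 3.88 with each array left out in turn. With hypoxia control replicate 1 counted as a normoxia + ketamine fetus it was 2.96, and the groups then overlapped (exact permutation p = 0.032).
This contrast and that of hypoxia control with normoxia control were not shown to differ. The interaction of ketamine with hypoxia was 1.28 for CATHL3 (SE 1.5, 95% CI -1.95 to 4.51, unadjusted P = 0.41 by limma), and no member probe was called for it, where 6.33% of all probes were.

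LTF (probe A_70_P030196, listed in the array files under LOC554321 and matched through its RefSeq accession) was also well above background on all 16 arrays. The normoxia controls were at 7.5, 7.65 and 7.82 (mean 7.65 ± 0.16, SD), and the normoxia + ketamine fetuses at 6.93, 7.30, 7.25 and 7.19 (mean 7.17 ± 0.17). All 4 normoxia + ketamine fetuses were below all 3 normoxia controls. The hypoxia controls were at 6.75, 8.33, 8.80, 7.66 and 8.06 (mean 7.92 ± 0.77), and the hypoxia + ketamine fetuses at 7.21, 8.09, 6.99 and 9.13 (mean 7.86 ± 0.98). The fetuses above every normoxic fetus were the same 5 as for CATHL3, and the SD within the hypoxia groups was several times that within the normoxic groups.

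No LTF comparison passed the test across all arrays. The log2 difference was 0.27 in hypoxia control against normoxia control (SE 0.44, exact permutation p = 0.57), -0.07 in hypoxia + ketamine against hypoxia control (SE 0.41, p = 0.92) and 0.69 in hypoxia + ketamine against normoxia + ketamine (SE 0.43, p = 0.29), and the groups overlapped in each. The last was called without hypoxia + ketamine replicate 3 (0.98) and with hypoxia control replicate 1 under its other label (0.77). Without hypoxia control replicate 1 the first was 0.56 and the second -0.36.
In normoxia + ketamine against normoxia control LTF differed by -0.49 (SE 0.47, 95% CI -1.48 to 0.51, unadjusted P = 0.31, adjusted P = 1 by limma). The groups did not overlap, as for 2.43% of all probes in this direction, and the exact permutation p was 0.057, the smallest that 4 against 3 fetuses allow. With hypoxia control replicate 1 as a further normoxia + ketamine fetus the difference was -0.57, and all 5 lay below the 3 normoxia controls, as did 1.44% of all probes (exact permutation p = 0.036, the smallest possible). With the spread of these groups alone, the unadjusted P of the -0.49 was 0.0031 by limma. The difference was -0.45 within the first slide and -0.60 within the second.

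The other cathelicidins varied with CATHL3 from fetus to fetus. CATHL1B (probe A_70_P051376), the precursor of a cyclic dodecapeptide, was at 12.27, 13.24 and 11.04 in hypoxia control replicates 2, 3 and 5 and at 12.29 and 12.81 in hypoxia + ketamine replicates 2 and 4, and between 7.14 and 9.26 in the other 11 fetuses. BAC5, the precursor of a proline-rich bactenecin, was between 10.81 and 13.14 in the same 5 fetuses and between 7.39 and 9.67 in the rest (probe A_70_P039656). SC5 was between 8.80 and 11.75 in these 5 and between 7.39 and 8.35 in the rest. Each of these genes thus separated the same fetuses as CATHL3, which were found on both slides.

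**Figure D2:**
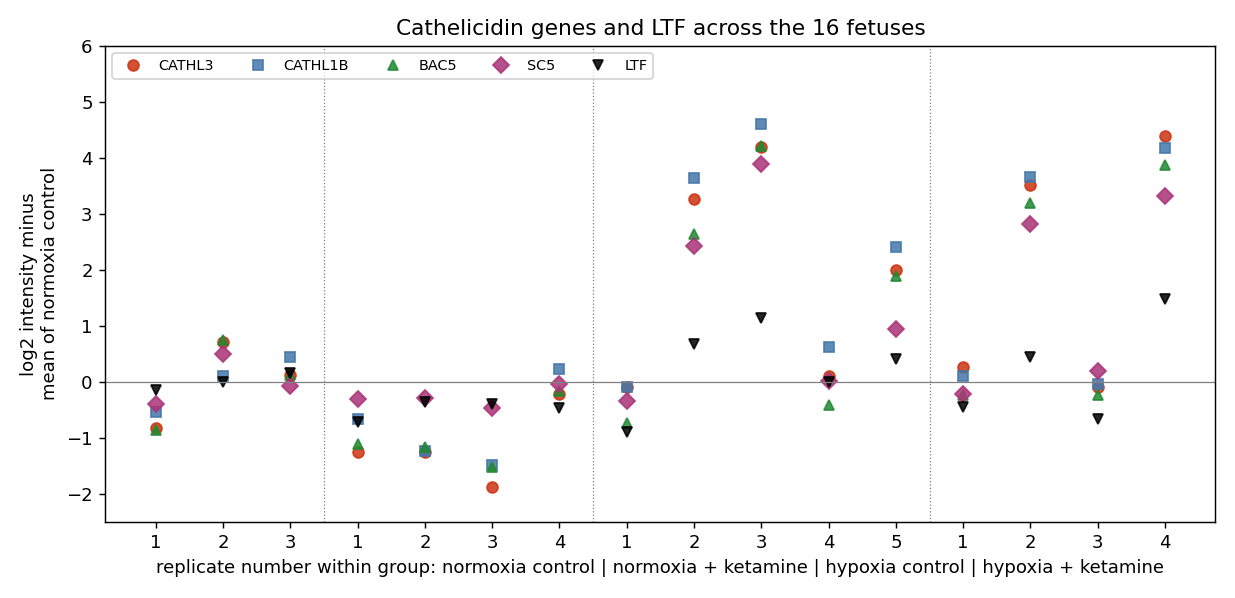
Log2 intensity of CATHL3, CATHL1B, BAC5, SC5 and LTF in each of the 16 fetuses, as the difference from the mean of the 3 normoxia controls. Dotted lines part the groups and each mark is a gene in a fetus. Hypoxia control replicates 2, 3 and 5 and hypoxia + ketamine replicates 2 and 4 are raised for all 5 genes.

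The likeness was measured as Pearson r over the 16 arrays, among named genes with a probe well above background on at least 8 arrays. Of 755 other genes, those most like CATHL3 were BAC5 (r = 0.990, Spearman rho = 0.941), CATHL1B (0.987 and 0.926), SC5 (0.960 and 0.885), LTF (0.881 and 0.776) and TLR3, a receptor for double-stranded RNA (0.873 and 0.815). The first 4 were also the first 4 after the group means were taken out, with r of 0.993, 0.985, 0.966 and 0.896, so that the likeness was about as high within groups. For LTF the 4 most like were the cathelicidins BAC5 (0.901), SC5 (0.887), CATHL1B (0.881) and CATHL3 (0.881), followed by TLR3 (0.692). These arrays share slides and a common normalisation, and the cathelicidin probes may share targets. LTF belongs to another family, the transferrins.

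Between hypoxia + ketamine and normoxia + ketamine CATHL1B and BAC5 were called as well. The log2 difference was 2.76 for CATHL1B (SE 1.1, unadjusted P = 0.021, adjusted P = 0.667 by limma, exact permutation p = 0.086) and 2.65 for BAC5 (SE 1.1, P = 0.028, adjusted P = 0.685, exact permutation p = 0.086), with overlapping groups. SC5 was at 1.80 (exact permutation p = 0.057) and was not called. It was called without hypoxia control replicate 1 or 3 or hypoxia + ketamine replicate 1 or 3 (1.80 to 2.38), with only these groups in the fit (1.80), with 75th percentile scaling (1.82) and with hypoxia control replicate 1 under its other label (1.82). In the order of size, 5 of the 12 largest increases in this comparison were cathelicidin probes other than CATHL3. They stand for CATHL1B, BAC5 and SC5 only, as CATHL1B and BAC5 were each read by a pair of probes that correlated at r = 0.999. CATHL1B was not called without normoxia + ketamine replicate 3 (2.52) or hypoxia + ketamine replicate 2 (2.20) or 4 (2.03), and BAC5 not without normoxia + ketamine replicate 1 (2.61), 2 (2.59) or 3 (2.47) or hypoxia + ketamine replicate 2 (2.13) or 4 (1.91).
Between hypoxia control and normoxia control the differences were 2.23 for CATHL1B (SE 1.1, exact permutation p = 0.14), 1.52 for BAC5 (SE 1.1, p = 0.29) and 1.38 for SC5 (SE 0.91, p = 0.21), and none was called. CATHL1B was called with hypoxia control replicate 1 left out or under its other label (2.81), with array weights (2.36), with 75th percentile scaling (2.28), and without hypoxia control replicate 4 (2.64) or hypoxia + ketamine replicate 4 (2.23). Between hypoxia + ketamine and hypoxia control the 3 genes were at -0.27, 0.13 and 0.15, and in normoxia + ketamine against normoxia control at -0.79, -0.99 and -0.28, with none called.

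**Figure D3:**
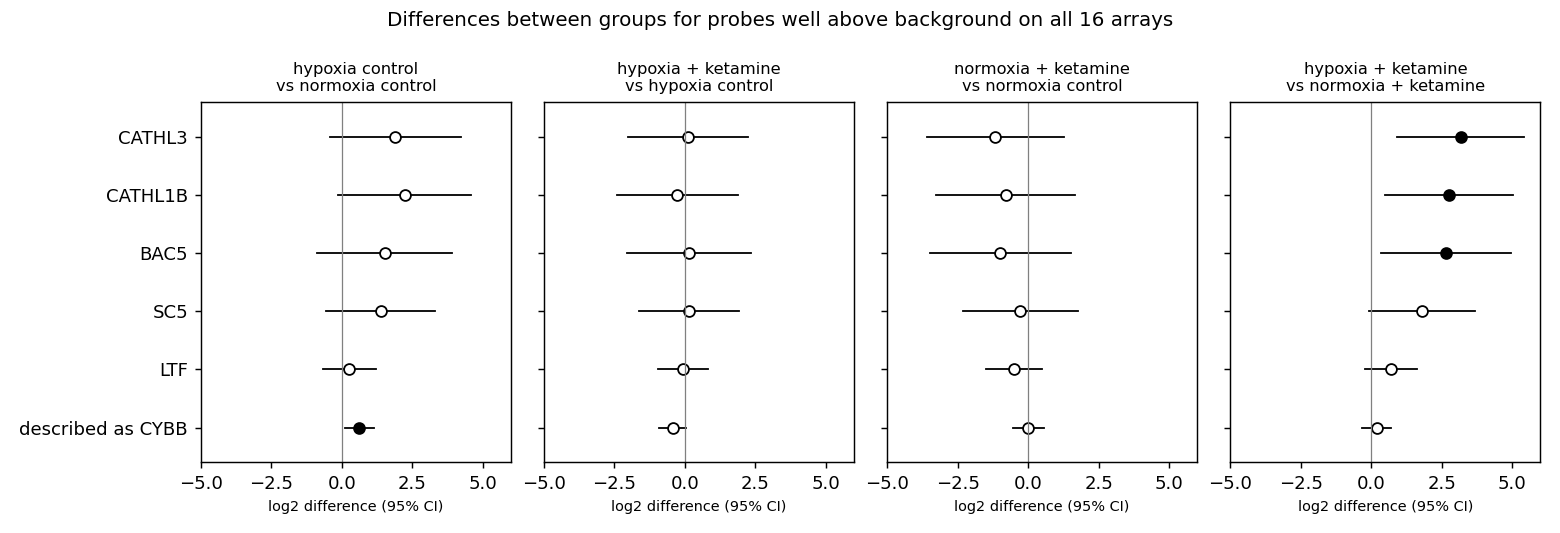
Log2 difference with its 95% confidence interval (limma, all 16 arrays) for CATHL3, CATHL1B, BAC5, SC5, LTF and the probe described as CYBB, which were well above background on all arrays. Each panel is a comparison, and filled points are called at an unadjusted P under 0.05. CATHL3, CATHL1B and BAC5 are called in hypoxia + ketamine against normoxia + ketamine, and the probe described as CYBB in hypoxia control against normoxia control.

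The list of granule genes held 40 symbols, older synonyms included, of which 9 genes were measured: the members CATHL3, LTF and MMP9, the other 3 cathelicidins, and LYZ, CHI3L1 and SLPI. In hypoxia control against normoxia control 8 of the 9 were higher and none was called, with a median log2 difference of 0.97 against -0.023 over all probes. Only 6 of the 9 were well above background on all 16 arrays, and the 8 include MMP9, which was so on none. Between hypoxia + ketamine and normoxia + ketamine 3 of 9 were called higher and none lower, with a median of 0.83 against 0.001, where 3.09% of all probes were called higher. Without hypoxia control replicate 1 the calls were 3 in the first comparison, CATHL3, CATHL1B and LYZ, and 4 in the second, with SC5 added. The median was 0.08 in hypoxia + ketamine against hypoxia control and -0.28 in normoxia + ketamine against normoxia control, with none called in either. As 4 of the 9 genes are cathelicidins, the medians lean on that family.

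LYZ encodes lysozyme, which neutrophils, macrophages and microglia all make, and was well above background on 8 of 16 arrays. Its brighter probe (A_70_P051227) was between 6.12 and 6.48 in normoxia control and between 6.32 and 6.87 in normoxia + ketamine. The hypoxia controls were at 6.36, 8.41, 7.76, 6.21 and 7.65, and the hypoxia + ketamine fetuses at 7.26, 9.01, 6.34 and 7.00. The 5 fetuses high in CATHL3 and hypoxia + ketamine replicate 1 were above every normoxic fetus. The log2 difference was 0.97 in hypoxia control against normoxia control (SE 0.53, exact permutation p = 0.21) and 0.83 in hypoxia + ketamine against normoxia + ketamine (SE 0.52, p = 0.14), and neither was called. The first was called without hypoxia control replicate 1 (1.20). The second LYZ probe (A_70_P051226) was called in both, at 1.04 (SE 0.48, exact permutation p = 0.036) and 1.03 (SE 0.47, p = 0.11), so the LYZ call depends on the probe.
CHI3L1, a chitinase-like protein of specific granules that astrocytes and macrophages also make, was not called: its differences lay between -0.25 and 0.36 with SE of 0.31 to 0.36. SLPI, an inhibitor of neutrophil elastase, was well above background on 2 arrays and was not called by its brighter probe, while its dimmer probe was called lower in hypoxia control against normoxia control.

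CYBB was near the limit of the array by its named probes. Probe A_70_P021812 was well above background in hypoxia control replicates 2 and 4 alone, and probe A_70_P021811 in hypoxia control replicate 4 alone. For A_70_P021812 these fetuses were at 6.76 and 7.38, while the other 3 hypoxia controls were at 6.16, 6.39 and 6.39. Normoxia control lay between 6.04 and 6.37, normoxia + ketamine between 6.10 and 6.5 and hypoxia + ketamine between 6.21 and 6.38. For A_70_P021811 hypoxia control ran from 6.17 to 6.67, and every other fetus lay between 6.06 and 6.45. By these named probes, only the hypoxia control group thus held any fetus with a CYBB signal well above background.
In the other groups these probes give only an upper bound on the level, and most hypoxia controls were below background too, so no fold is given. Neither probe was called against normoxia control, with differences between readings of 0.36 and 0.22 on the log2 scale (exact permutation p = 0.18 and 0.11), or against hypoxia + ketamine. Without hypoxia control replicate 1, or with it under its other label, both probes were called against normoxia control, at 0.47 and 0.29, and A_70_P021812 also against hypoxia + ketamine, at -0.39. Both were called against normoxia control with 75th percentile scaling (0.49 and 0.37), and A_70_P021811 also without normoxia control replicate 2 (0.29) and with array weights (0.24).

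The probe described as CYBB, A_70_P068061, was well above background on all 16 arrays. The normoxia controls read 7.45, 7.65 and 7.70 and the normoxia + ketamine fetuses 7.93, 7.64, 7.58 and 7.29. The hypoxia controls read 7.5, 9.01, 8.42, 8.13 and 8.09 and the hypoxia + ketamine fetuses 7.67, 8.08, 7.65 and 7.82. All hypoxia controls but replicate 1 were above every other fetus, but replicate 5 (8.09) only just exceeded hypoxia + ketamine replicate 2 (8.08). Its difference was 0.63 in hypoxia control against normoxia control (SE 0.24, unadjusted P = 0.021, adjusted P = 0.552 by limma, exact permutation p = 0.11) and -0.42 in hypoxia + ketamine against hypoxia control (SE 0.22, p = 0.17). The first was not called without normoxia control replicate 1 (0.56) or with only these groups in the fit. The second was called with 75th percentile scaling (-0.47) and with hypoxia control replicate 1 left out or under its other label (-0.61). Without hypoxia control replicate 1 the groups did not overlap in either comparison, with differences of 0.81 (exact permutation p = 0.057, the smallest possible) and -0.61 (p = 0.029, the smallest possible). Of all probes 3.75% and 1.27% were so separated in those directions. The fetuses high in this probe were in part those high in CATHL3. Hypoxia control replicates 2, 3 and 5 and hypoxia + ketamine replicate 2 were above every normoxic fetus for both. Hypoxia control replicate 4 was so here but not for CATHL3, and hypoxia + ketamine replicate 4 had the highest CATHL3 of all and was at 7.82 here.

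The genes most like the probe described as CYBB were LOC100135684 (r = 0.912 over 16 arrays), CD86, a costimulatory receptor of macrophages and microglia (0.909), OVAR (0.870), FCER1G, the signalling chain of Fc receptors (0.858), and PSMB8, a subunit of the immunoproteasome (0.855), of 756 genes. For A_70_P021812 they were CD40, MX2, MYD88, IFNAR2 and MX1 (r from 0.850 to 0.907), but their Spearman rho was between 0.315 and 0.474, so the likeness by rank was weaker. It is a likeness mostly to readings below background. Over the 16 arrays A_70_P021812 correlated with A_70_P021811, which shares all but 1 of its bases, at only r = 0.496 (Spearman rho = 0.291). No cathelicidin was among the genes named here, and CATHL3 correlated with the CYBB probes at 0.086, 0.583 and, for the described probe, 0.643.

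**Figure D4:**
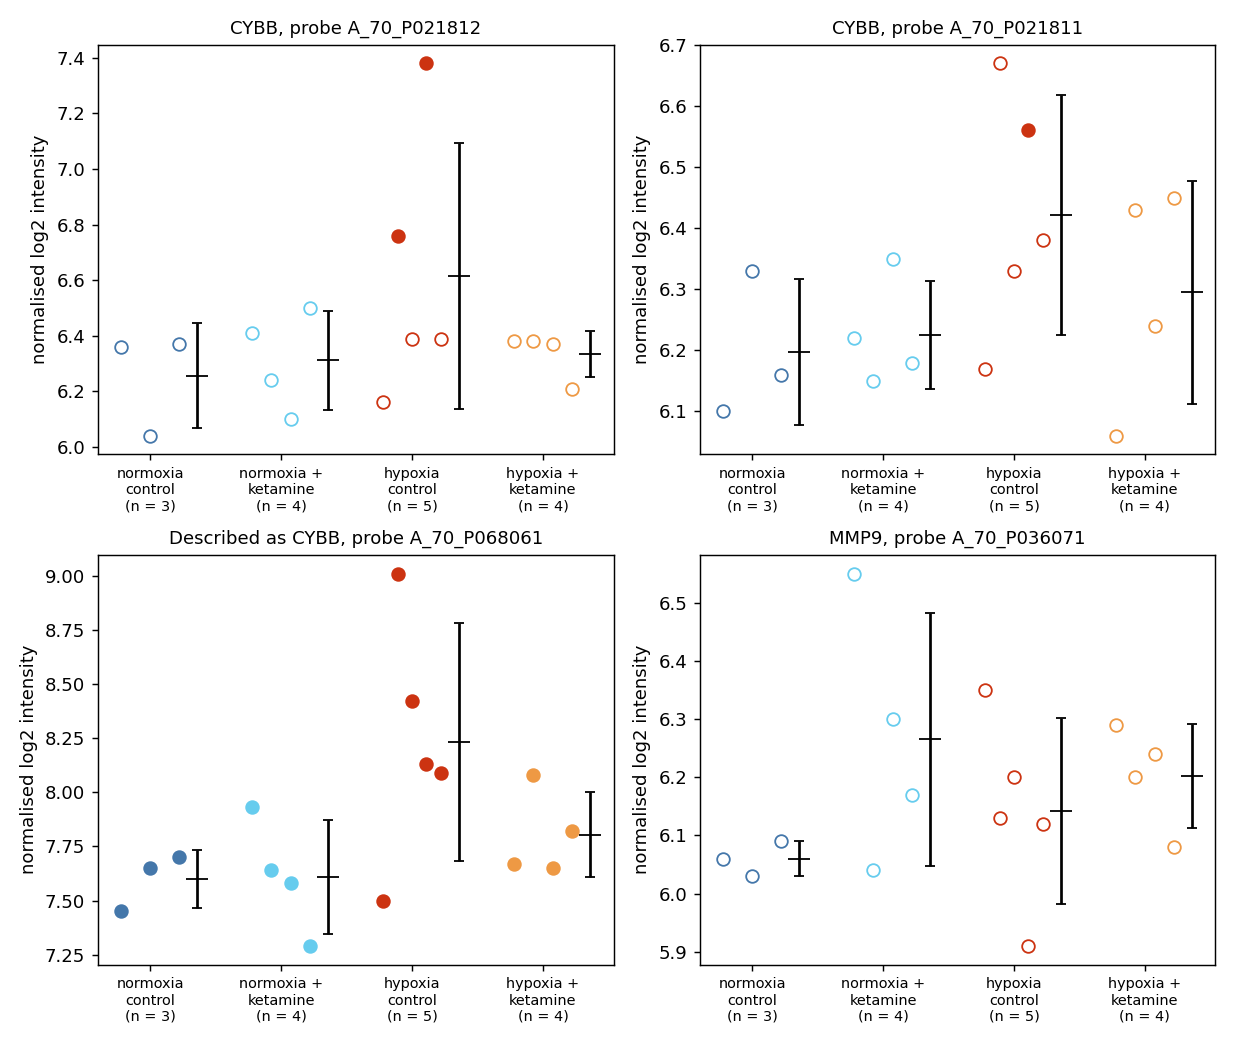
Normalised log2 intensity in each fetus for the CYBB probes A_70_P021812 and A_70_P021811, the probe described as CYBB (A_70_P068061) and MMP9, by group, with mean ± SD. Filled points were well above background on that array and open points were not, and the axes differ between panels. The named CYBB probes have 2 and 1 filled points, all in hypoxia control, and MMP9 has none.

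MMP9 (probe A_70_P036071) was not well above background on any array. Its readings lay between 5.91 and 6.55 over the 16 fetuses, with the highest in normoxia + ketamine replicate 1, and no fold is given. It was not called in any comparison, and a call in normoxia + ketamine against normoxia control without normoxia + ketamine replicate 2, or with hypoxia control replicate 1 under its other label, rests on readings below background. Its readings did not follow CATHL3 (r = -0.214) or LTF (r = -0.427). The named genes most like it over the 16 arrays were LPL, SRI, KCNK3, CPT1B and TALDO1 (r from 0.673 to 0.737), a likeness to readings below background. On the list of matrix proteases and their inhibitors, 8 of 17 genes were measured, MMP9 among them. In hypoxia control against normoxia control 2 were called higher, where 3.33% of all probes were. These were the protease inhibitors TIMP1 (0.39, SE 0.15, adjusted P = 0.552 by limma) and TIMP3 (0.67, SE 0.22, adjusted P = 0.486). Both were called lower in hypoxia + ketamine against hypoxia control (-0.38 and -0.87), where 3.6% of all probes were called lower and 5.35% higher. MMP13 was called higher in that comparison (0.42, SE 0.17, adjusted P = 0.521 by limma) with a signal well above background on 2 arrays. None of the 8 was called in the other comparisons. With hypoxia control replicate 1 under its other label MMP2 was called lower in hypoxia control against normoxia control (-0.3).

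Of the NADPH oxidase list 5 of 11 genes were measured: CYBB, its membrane partner CYBA (p22-phox), the GTPase RAC1, and the related catalytic subunits NOX1 and NOX4. RAC1, which many cells use for other ends too, was called higher in hypoxia control against normoxia control (0.22, SE 0.096, exact permutation p = 0.071) and lower in hypoxia + ketamine against hypoxia control (-0.21, SE 0.088, p = 0.048). The first was not called with hypoxia control replicate 1 under its other label. RAC1 was the sole call of the 5 genes in each, where 3.33% of all probes were called higher in the first and 3.6% lower in the second. The list medians were 0.20 and -0.19. CYBA was at 0.20 (SE 0.16) and -0.15 (SE 0.14) and was not called. NOX1 was well above background on no array and NOX4 on 3, and neither was called. No gene of the list was called in the other comparisons, where the medians were -0.02 and 0.02.

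**Figure D5:**
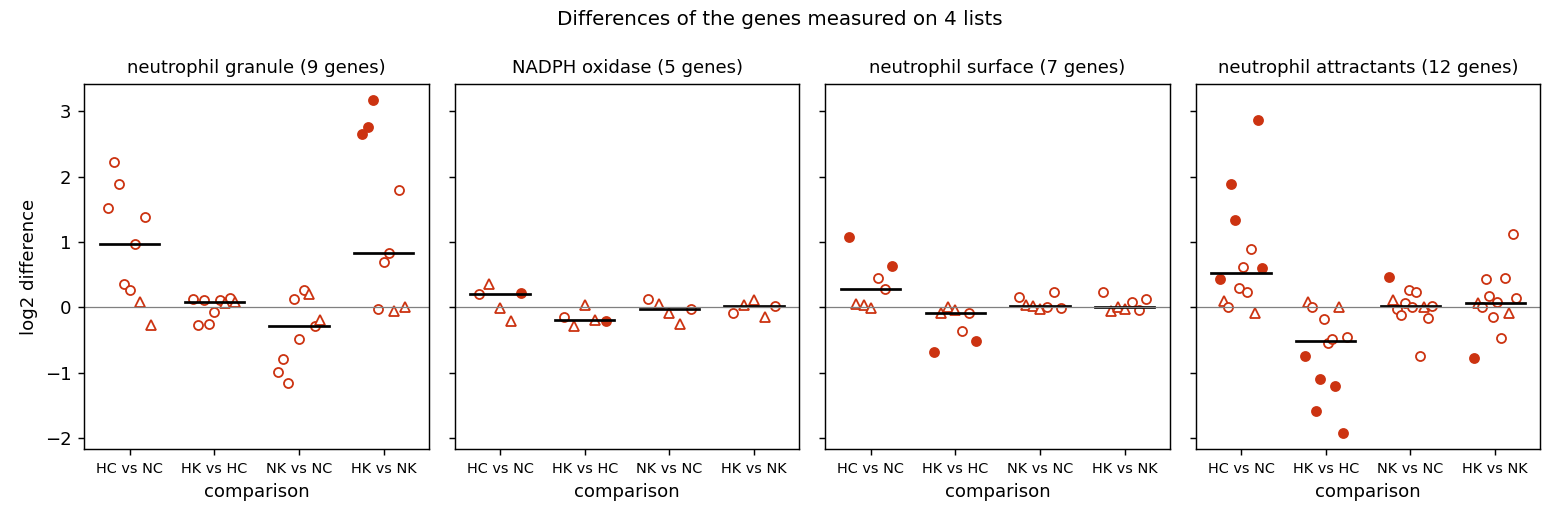
Log2 difference of every gene measured on the lists of neutrophil granule, NADPH oxidase, neutrophil surface and neutrophil attractant genes, in the comparisons of hypoxia control (HC), normoxia control (NC), hypoxia + ketamine (HK) and normoxia + ketamine (NK). Filled marks were called at an unadjusted P under 0.05, triangles are genes well above background on fewer than 8 of 16 arrays, and the black line is the list's median. The granule genes have 3 filled marks in HK vs NK, while the attractants have filled marks above 0 in HC vs NC and below 0 in HK vs HC.

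Genes that draw neutrophils into tissue were set beside the granule genes. Of 12 attractant genes measured, 5 were called higher in hypoxia control against normoxia control (SELP, CXCL8, ICAM1, TNF and C3) and 5 were called lower in hypoxia + ketamine against hypoxia control (SELP, CXCL8, PTGS2, ICAM1 and C3), with medians of 0.52 and -0.51, where 3.33% of all probes were called higher in the first comparison and 3.6% lower in the second. Without hypoxia control replicate 1 the calls were 3 higher, SELP (2.68), ICAM1 and TNF, and 5 lower, with TNF (-0.60) in place of CXCL8. CXCL8 then fell short in both (1.40 and -1.09), and with that fetus under its other label 4 were called lower, SELP no longer among them (-1.74). SELP encodes P-selectin, on which leukocytes roll along the vessel wall, and CXCL8 a chief neutrophil chemokine. CXCL8 (probe A_70_P039662) was at 10.62 in hypoxia control replicate 1 and 11.02 in replicate 4, and between 6.36 and 7.67 in the other 14 fetuses. These fetuses were the lowest of their group for CATHL3, at 8.35 and 8.53. SELP (A_70_P039517) was likewise highest in replicates 1 and 4, at 10.16 and 11.56, and was between 7.00 and 9.75 in the other hypoxia controls. Over the 16 arrays CATHL3 correlated with CXCL8 at r = -0.011 (Spearman rho = 0.224) and with SELP at 0.308 (0.547). After the group means were taken out r was -0.567 and -0.31. In normoxia + ketamine against normoxia control C3, the central complement component, was the sole call and was higher (0.46, SE 0.18, adjusted P = 1 by limma). Where CATHL3 was called, in hypoxia + ketamine against normoxia + ketamine, C3 alone of the 12 was called, and it was lower (-0.78, SE 0.17, exact permutation p = 0.029, the smallest possible).

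Of 20 listed surface and receptor genes that neutrophils carry, 7 were measured. CD14 (1.08, SE 0.28, adjusted P = 0.318 by limma) and TLR2 (0.64, SE 0.17, adjusted P = 0.318) were called higher in hypoxia control against normoxia control, where 3.33% of all probes were. Both were called lower in hypoxia + ketamine against hypoxia control (-0.68 and -0.52), where 3.6% of all probes were. Both genes are shared with monocytes and microglia. No gene of the list was called in hypoxia + ketamine against normoxia + ketamine, where its median was 0.01. ITGAL was well above background on no array. The mean level of the list was 6.99 to 7.13 in normoxia controls, 7.05 to 7.25 with ketamine under normoxia, 7.15 to 7.64 in hypoxia controls and 7.12 to 7.26 with ketamine before hypoxia, and over the 16 arrays it correlated with CATHL3 at 0.40.

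Markers of other cells were set beside CATHL3. Of the red blood cell list 3 of 16 genes were measured, and the mean level was 8.74 to 9.48 in normoxia controls, 8.85 to 9.49 with ketamine under normoxia, 8.90 to 10.05 in hypoxia controls and 8.96 to 9.42 with ketamine before hypoxia (r = 0.11 with CATHL3). AHSP, the haemoglobin-stabilising protein of maturing red cells, was at 8.56, 8.15, 8.67 and 8.08 in hypoxia control replicates 2 to 5, at 7.95 and 8.16 in hypoxia + ketamine replicates 2 and 4, and between 6.47 and 7.53 in the rest (probe A_70_P054887). The fetuses high in CATHL3 were thus high in AHSP as well, but so was hypoxia control replicate 4, which was low in CATHL3. AHSP was the 1 gene of its list called in hypoxia control against normoxia control (1.04, SE 0.40, exact permutation p = 0.14), where 3.33% of all probes were called higher. Without hypoxia control replicate 1 it was called lower in hypoxia + ketamine against hypoxia control (-0.69). With that fetus under its other label AHSP was also called higher in hypoxia + ketamine against normoxia + ketamine (0.64). CA1 was well above background on no array.
The microglia and macrophage list, 6 of 24 genes measured, had a mean of 8.06 to 8.19 in normoxia controls, 8.20 to 8.36 with ketamine under normoxia, 8.29 to 8.97 in hypoxia controls and 8.11 to 8.45 with ketamine before hypoxia (r = 0.46). In hypoxia control against normoxia control 3 of the 6 were called higher, where 3.33% of all probes were. These were CD14, CD86 (0.69, SE 0.23, exact permutation p = 0.036) and FCER1G (0.53, SE 0.20, p = 0.071), with a list median of 0.43. CD14 was called lower in hypoxia + ketamine against hypoxia control, where 3.6% of all probes were called lower and the list median was -0.27. Without hypoxia control replicate 1, or with it under its other label, CD86 was called lower there as well (-0.57). CD86 and FCER1G are also among the genes most like the probe described as CYBB. The lymphocyte list, 5 of 16 genes measured, ran from 6.83 to 7.09, 6.95 to 7.04, 6.96 to 7.44 and 6.90 to 7.27 in the same order (r = 0.67), with CD4 well above background on no array. CD5 was called higher in hypoxia control against normoxia control (1.04, SE 0.26, exact permutation p = 0.036) and lower in hypoxia + ketamine against hypoxia control (-0.53, SE 0.24, p = 0.16). The astrocyte gene GFAP was called in the same directions (0.83 and -0.57). It was the sole call of the 4 astrocyte genes measured of 9 listed, with list medians of 0.06 and -0.15. The choroid plexus list, 4 of 7 genes measured, had a mean of 9.96 to 11.96 in normoxia controls and 9.85 to 11.29 with ketamine under normoxia. It was 9.14 to 11.43 in hypoxia controls and 9.37 to 10.83 with ketamine before hypoxia (r = -0.28 with CATHL3). TTR of that list was called lower in hypoxia control against normoxia control (-4.48). The part of these markers in the levels of CATHL3, LTF and the probe described as CYBB was not tested.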

How the data were processed

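Total RNA of the frontal cortex (RNA integrity numbers 7.7 to 9.2 per the labels) was labelled with Cy3 and hybridised by the authors to 1-colour Agilent sheep arrays of 15744 spots on 2 slides, each holding every group. The deposited intensities are spot means and local background medians from Feature Extraction 10.1.1.1 (per the file headers). A deposited table of log2 values, made by the authors with background correction and quantile normalization by limma in R 2.15.1, was used as an alternative only. Its columns correlated at 0.9952 to 0.9975 with background-corrected log2 signal.

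Mean intensities were background-corrected (normexp, offset 50), quantile normalized and averaged per probe, without 536 control spots per array and 222 outlier spots. On some arrays a few spots beside very bright local background distorted the default normexp fit (background means down to -743), so the parameters were fitted on spots brighter than their local background. The 4 groups were fitted together with limma 3.58.1 in R 4.3.3, a probe counting as called below an unadjusted P of 0.05, the study's threshold, with Benjamini-Hochberg values over 15008 probes beside it. Each of the 5 member probes had 4 two-sided exact permutation tests between fetuses, 20 in all. The code was tested on simulated data. Replicate numbers were not used to pair fetuses in the main fit. Over 21 same-numbered pairs the correlation of deviations ran from -0.1 to 0.36. Its median was 0.05, against -0.02 over pairs with different numbers in different groups. Such values cannot settle whether some numbers pair fetuses.

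Probes were named from the array files and a RefSeq gene table, used for names only, and 13352 stayed unnamed here. All probes of the 4 genes are given. Genes of the lists described are named where called, up to 5 per list, with all genes of the granule and oxidase lists and the 5 most like each probe (not reported here for A_70_P021811), and genes outside this rule (AHSP, NPY, SST, GFAP, ITGAL, CA1, CD4 and probes beside the brightest of a gene) were named after their values were seen. A gene of a list is represented by its probe of highest mean. Members and lists were chosen with earlier results of these data known. Most fetuses were twins, and the labels do not tie them to ewes, so some may share a ewe while every test treats them as independent. The small number of arrays limits the precision.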

Additional observations from a re-analysis of the deposited data

Results flagged for a closer look

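In probe A_70_P021812 of CYBB, hypoxia + ketamine replicate 4 was at 6.21, apart from the other 3 fetuses of its group at 6.37 to 6.38. None of these readings was well above background. It was the only such gap among 18 sets of a probe and a group examined, where chance marks about 1 in 20.

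Probe A_70_P068061, which carries no gene symbol but is described as the CYBB product, was higher by 0.63 on the log2 scale in hypoxia control than in normoxia control (SE 0.24, unadjusted P = 0.021, adjusted P = 0.552 by limma). It was well above background on all 16 arrays, while the named CYBB probes were so on 2 and 1.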

How the results depend on the processing

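Under 13 other settings CATHL3 in hypoxia + ketamine against normoxia + ketamine was called in all, from 2.80 to 3.95, and its 3.17 lost the call only under Benjamini-Hochberg adjustment (adjusted P = 0.561). That adjustment left 0 probes called by limma in each of the 5 contrasts, against 1198, 1343, 353, 1033 and 950 at an unadjusted P under 0.05. With each array left out in turn it ran from 2.38 to 3.88 and was called each time. The replicate number as a block gave 3.17 for CATHL3 and 0.69 for LTF there, changed the call of no other member but MMP9 (0.25 in normoxia + ketamine against normoxia control) and reversed A_70_P021812 of CYBB there (-0.03).

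Other CATHL3 results moved more. In hypoxia control against normoxia control it was 2.39 and called with hypoxia control replicate 1 under its other label, and 1.32 to 2.39 with 1 array left out. In hypoxia + ketamine against hypoxia control it reversed to -0.38 under that label and to -0.09 with array weights, and ran from -0.67 to 0.83 with 1 array left out. LTF ran from -0.49 to 0.22 there, with the sign turned to 0.04, 0.15, 0.15 and 0.22 without hypoxia control replicates 2 or 3 or hypoxia + ketamine replicates 1 or 3. In hypoxia + ketamine against normoxia + ketamine LTF was 0.77 and called under that label, and 0.26 to 0.98 with 1 array left out, and its interaction ran from -0.01 to 0.71. With only the compared groups in the fit, CATHL3 (-1.16) and LTF (-0.49) were called in normoxia + ketamine against normoxia control.

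Readings below background turned sign. MMP9 in hypoxia + ketamine against hypoxia control was -0.06 and -0.08 with the scanner's processed signal (quantile or percentile scaling), and ran from -0.14 to 0.03 against normoxia + ketamine with 1 array left out. In normoxia + ketamine against normoxia control A_70_P021811 was -0.19 and -0.45 with the processed signal and -0.04 without background correction, and -0.02 to 0.09 with 1 array left out, where A_70_P021812 was -0.06 to 0.12. A_70_P021812 ran from -0.04 to 0.09 in hypoxia + ketamine against normoxia + ketamine.

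Probes called in normoxia + ketamine against normoxia control numbered 227 among probes well above background and 564 with array weights, against 353. The share of calls that were higher was 77.6% in hypoxia control against normoxia control and 75.6% in normoxia + ketamine against normoxia control with normexp and 75th percentile scaling, against 41.7% and 37.4%, and 56.1% and 49.9% with the scanner's processed signal so scaled. Normexp fitted on all spots, chosen after seeing the data, gave a CATHL3 difference of 2.90 in hypoxia + ketamine against normoxia + ketamine. The causes were not tested. With 3 to 5 fetuses a group and a residual SD of 1.64, only large CATHL3 differences could pass.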
